A study of Mus musculus with 6 samples.

Results

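The narrow distal Bcl6 peaks are the regions of Bcl6 enrichment that lay more than 5 kb and at most 50 kb from the nearest transcription start site (TSS) listed for them by the authors and that were at most 2000 bp wide. Of 3878 peaks, 710 met both conditions, which is 18.3%. They were chosen by their width and position in the deposited peak calls, so neither measure is a finding about them. The series holds 3 Bcl6 ChIP libraries and 3 input DNA libraries from A2 lox.Cre Bcl6 mouse embryonic stem cells, a single line with a tetracycline-inducible Bcl6 transgene. The cells were differentiated into cortical progenitors, with cyclopamine at 400 ng/mL during part of the culture to block hedgehog signalling, and all 6 libraries come from cells at differentiation day 12 that received doxycycline at 1 µg/mL for 24 h. ChIP and input therefore share the transgene, the induction and the cyclopamine, and cells without doxycycline were not analysed here. The authors pooled the libraries, so that each peak has 1 value and no spread between replicates.

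Bcl6 is a transcriptional repressor with a BTB domain that recruits corepressors and zinc fingers that bind DNA. It is best known from germinal centre B cells, and in the developing cortex it promotes the change from progenitor to neuron, in part through Notch pathway genes. Sites away from annotated promoters can be enhancers, silencers, or promoters of transcripts that a given gene annotation does not list, and a peak by itself does not tell these apart.

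The fold enrichment (ChIP over local background), the tag count and the p-value score are the values of the authors' peak caller, from 1 pooled comparison with 56836596 ChIP tags (11718276 after duplicates were removed) and 12808138 input tags (5048582 after duplicates were removed). They are used here to describe and rank peaks, and no test was run, because every measure comes from the calls that chose the members. Intervals given with shares are exact 95% binomial intervals and cover the counting of peaks, genes or sequence windows only.

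Of the 710 narrow distal peaks, 79 (11.1%, interval 8.91 to 13.7) overlapped a promoter window in RefSeq, a window of 300 bases around an annotated gene start. Over all 3878 peaks the share was 51.9%, and among the 1741 narrow peaks within 1 kb of a listed TSS it was 79.3%. Members were chosen away from listed TSSs, so a share below those values follows in part from the choice. It was 14.8% in narrow peaks at 1 to 5 kb, 9.80% in narrow peaks beyond 50 kb and 15.7% in wide peaks beyond 5 kb. A share near 11.1% is therefore not particular to narrow distal peaks. The distance in the authors' list is taken to a single TSS per gene, and 52 of the 79 peaks sat at another RefSeq start of a gene listed for that same peak. The other 27 sat only at starts of genes that the list did not give for the peak. A protein-coding gene was among the starts in 58 of the 79 peaks, and 21 had lncRNA starts only. The summit, the position of highest tag pile-up, lay a median of 129 bp from the nearest of these starts, and within 250 bp of it in 56 of the 79 peaks. The 79 were chosen for overlapping a start window and had a median width of 1288 bp. Short distances thus follow in part from the choice, and no expected distance was computed. The median fold of the 79 was 23.4 (quartiles 19.6 and 26.6), against 23.6 (quartiles 19.4 and 31.5) in the 631 narrow distal peaks at no RefSeq start.

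The windows of 4 such starts are shown because they give the sequence under peaks that the gene list places far from any promoter: those with the 3 highest folds, and 1 that was chosen after its values were seen because it alone held the longer Bcl6-type motif. Each runs from 250 bases before to 50 bases after the start, is read 5′ to 3′ on the strand of the gene, and comes from RefSeq on GRCm38.p6, the same build as mm10. Capitals mark matches, on either strand, to any of 6 motifs: TTCNNNGAA (the core shared by Bcl6 and STAT sites), TTCCTNGAA (a longer Bcl6-type site, whose matches are all matches of TTCNNNGAA too), TGANTCA (AP-1), GGGCGG (the GC box of Sp and Krüppel-like factors), ATGCAAAT (the octamer) and CCAAT.
Gm31618, chr2:152612416-152612715, minus strand: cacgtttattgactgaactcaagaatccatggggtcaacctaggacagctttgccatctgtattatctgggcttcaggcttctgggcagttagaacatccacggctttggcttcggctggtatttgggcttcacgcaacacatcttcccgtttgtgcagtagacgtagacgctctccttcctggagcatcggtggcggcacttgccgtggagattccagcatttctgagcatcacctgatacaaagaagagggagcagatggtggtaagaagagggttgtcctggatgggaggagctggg
Ankrd24, chr10:81633449-81633748, plus strand: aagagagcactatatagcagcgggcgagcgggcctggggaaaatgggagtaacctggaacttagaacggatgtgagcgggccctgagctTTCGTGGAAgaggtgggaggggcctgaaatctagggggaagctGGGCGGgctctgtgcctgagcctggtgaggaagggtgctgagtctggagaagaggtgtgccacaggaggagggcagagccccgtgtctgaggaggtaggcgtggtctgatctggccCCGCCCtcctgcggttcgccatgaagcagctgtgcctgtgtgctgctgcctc
Gramd2, chr9:59679904-59680203, plus strand: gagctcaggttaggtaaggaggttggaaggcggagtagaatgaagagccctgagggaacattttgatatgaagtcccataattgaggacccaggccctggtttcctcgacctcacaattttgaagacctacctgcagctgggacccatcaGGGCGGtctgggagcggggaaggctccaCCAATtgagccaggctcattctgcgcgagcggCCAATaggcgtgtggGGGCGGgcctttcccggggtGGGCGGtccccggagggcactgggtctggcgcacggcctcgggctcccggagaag
F630042J09Rik, chr13:67278344-67278643, plus strand: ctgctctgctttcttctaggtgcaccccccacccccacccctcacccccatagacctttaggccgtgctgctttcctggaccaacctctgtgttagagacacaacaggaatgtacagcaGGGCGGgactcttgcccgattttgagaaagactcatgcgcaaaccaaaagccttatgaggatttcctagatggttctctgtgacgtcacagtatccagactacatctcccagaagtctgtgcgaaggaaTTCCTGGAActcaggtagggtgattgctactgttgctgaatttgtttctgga

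The Gm31618 window, the start of an lncRNA, lay in a 78.8-fold peak listed for the beta-defensin genes Defb36 and Defb25 at 8.07 kb and 10.7 kb downstream of their TSSs. It held none of the 6 motifs, although the fold of its peak was the highest of the 79. Ankrd24 had a 77.4-fold peak listed at 5.07 kb downstream of its TSS, and the summit was 117 bp downstream of the RefSeq start shown, whose window holds 1 TTCNNNGAA and 2 GC boxes. The Gramd2 window lay in a 53.9-fold peak listed 27.6 kb upstream of Gramd2 and 23.8 kb downstream of Pkm, which encodes the glycolytic enzyme pyruvate kinase M. Its summit was 17 bp upstream of the start shown, and the window holds 3 GC boxes and 2 CCAAT matches. F630042J09Rik, an lncRNA, had its start in a 26.6-fold peak listed for the zinc finger genes Zfp458 and Zfp457, with the summit 84 bp upstream. Next in fold among the 79 were the peaks at starts of Lmnb2, which encodes lamin B2 of the nuclear lamina (47.9-fold, summit 677 bp upstream), of the zinc finger gene Zscan18 (40.7-fold, 38 bp downstream) and of the lncRNA B930059L03Rik (39.6-fold, 333 bp downstream). These 7 starts were picked by fold or motif, so the range of their folds follows from the choice. The summit lay inside the window for 3 of the windows shown or named.

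In all, 99 RefSeq windows of 88 genes overlapped narrow distal peaks. Some of these windows overlap each other, so the intervals over windows count shared sequence more than once. GC boxes were common in them: 68 of 99 windows (68.7%, interval 58.6 to 77.6) held GGGCGG, against 35.7% of all 32851 RefSeq windows and 76.0% of the 1946 windows in narrow promoter peaks. TTCNNNGAA was in 2 of the 99 (2.02%, interval 0.246 to 7.11), the Ankrd24 and F630042J09Rik windows, against 8.30% of all windows. The longer TTCCTNGAA was in 1 of 99 (1.01%), against 1.59% of all windows. TGANTCA was in 7 of 99 (7.07%), against 7.81% of all windows, CCAAT in 25 (25.3%), against 37.4%, and ATGCAAAT in 0, against 1.74%. Base composition moved with these counts, with a median GC content of 65.7% in the 99 windows against 52.7% in all RefSeq windows, and its part in them was not tested. The 1946 windows in narrow promoter peaks were closer in GC content, with a median of 65.3%. In them TTCNNNGAA was in 7.19%, TTCCTNGAA in 1.34%, TGANTCA in 2.52%, CCAAT in 33.3% and ATGCAAAT in 0.925%. In the 35 windows that overlapped narrow peaks beyond 50 kb, TTCNNNGAA was in 7 (20.0%, interval 8.44 to 36.9). A match of letters is not evidence of binding, and the windows cover only the part of a peak next to an annotated start.

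**Figure D1:**
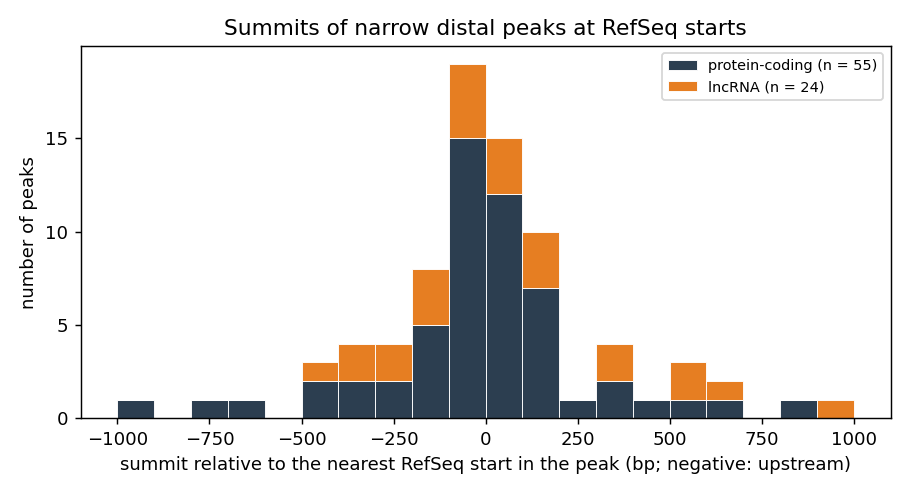
Histogram in bins of 100 bp of the distance between the summit of each of the 79 narrow distal peaks at a RefSeq start and the nearest start it overlaps (bp, negative is upstream), stacked by whether that nearest start is protein-coding (55 peaks) or lncRNA (24 peaks). Of the 79 summits, 56 lay within 250 bp of the start, and short distances follow in part from choosing peaks that overlap a start.

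A miRNA hairpin lay inside 6 narrow distal peaks (0.845%), against 0.748% of all peaks. These peaks were picked for their hairpins and not for height, with folds between 14.9 and 27.6. The summit nearest to a hairpin was that of a 27.6-fold peak in Dnm2, which encodes the membrane-scission GTPase dynamin 2: it lay 22 bp from the centre of the Mir199a-1 hairpin. A 19.7-fold peak in Egfl7, an endothelial secreted factor, held Mir126a and, on the opposite strand, Mir126b, with the summit 331 bp from the Mir126a hairpin. A 14.9-fold peak listed for Phrf1 and Rassf7 held Mir210, the product of which is known to be induced by hypoxia. The other hairpins were Mir8094 in Ddx39b (18.6-fold), Mir6991 in 2700081O15Rik (18.3-fold) and Mir7020 in Aldh4a1 (22.2-fold). The mature sequences of the best-known of these miRNAs are shown to identify them, from RefSeq on GRCm38.p6, 5′ to 3′, with the seed (bases 2 to 8) in capitals.
mmu-miR-199a-5p: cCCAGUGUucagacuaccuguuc
mmu-miR-199a-3p: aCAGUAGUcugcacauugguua
mmu-miR-126a-3p: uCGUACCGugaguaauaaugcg
mmu-miR-126b-3p: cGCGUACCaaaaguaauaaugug
mmu-miR-210-3p: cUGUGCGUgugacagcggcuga
No 2 of these 5 seeds are the same. The peaks measure DNA bound at the locus and not the level of the miRNA.

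The narrow distal peaks were higher in fold and lower in tags than peaks at promoters. Their median fold was 23.6 (quartiles 19.4 and 30.6, range 11.2 to 166), against 21.3 in narrow promoter peaks, 21.3 in the 243 narrow peaks at 1 to 5 kb, 16.9 in the 274 wide peaks beyond 5 kb, and 21.3 in all peaks. The narrow peaks beyond 50 kb were higher still, with a median of 28.2 over 296 peaks. In tag counts the order was another one, with a median of 43 tags (range 20 to 221) in narrow distal peaks, 43 in narrow peaks beyond 50 kb, 54 in narrow promoter peaks and 118 in wide peaks within 5 kb of a TSS. Median width was 1120 bp in narrow distal peaks and 1325 bp in narrow promoter peaks, and tags per kb were closer, at 37.3 and 39.9. The p-value score had a median of 65.3 in narrow distal peaks, against 69.1 in narrow promoter peaks, and 266 narrow distal peaks (37.5%) had a score under 60, against 29.8% of all peaks.

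A discrete step in the fold moved with the class. Folds of 185 narrow distal peaks (26.1%) lay within 0.01 of a whole multiple of 0.985, against 29.7% in narrow peaks beyond 50 kb, 15.2% in narrow promoter peaks and 3.65% in wide peaks beyond 5 kb. The step was chosen because it matched more folds of the series than the other steps tried. Of its multiples, 23.64 was shared by 19 narrow distal peaks. The most common single value, 21.28, shared by 30, is not a multiple of it. The part of this step in the difference of the medians was not tested. Width also moved with fold among the members themselves: the median fold was 29.2 in the 234 peaks under 1000 bp, 22.2 in the 347 of 1000 to 1500 bp and 19.2 in the 129 of 1500 to 2000 bp. Over the 710 peaks, which share the same pooled libraries, Spearman's rho was −0.478 between fold and width, −0.051 between fold and tag count and 0.055 between fold and distance to the nearest listed TSS.

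**Figure D2:**
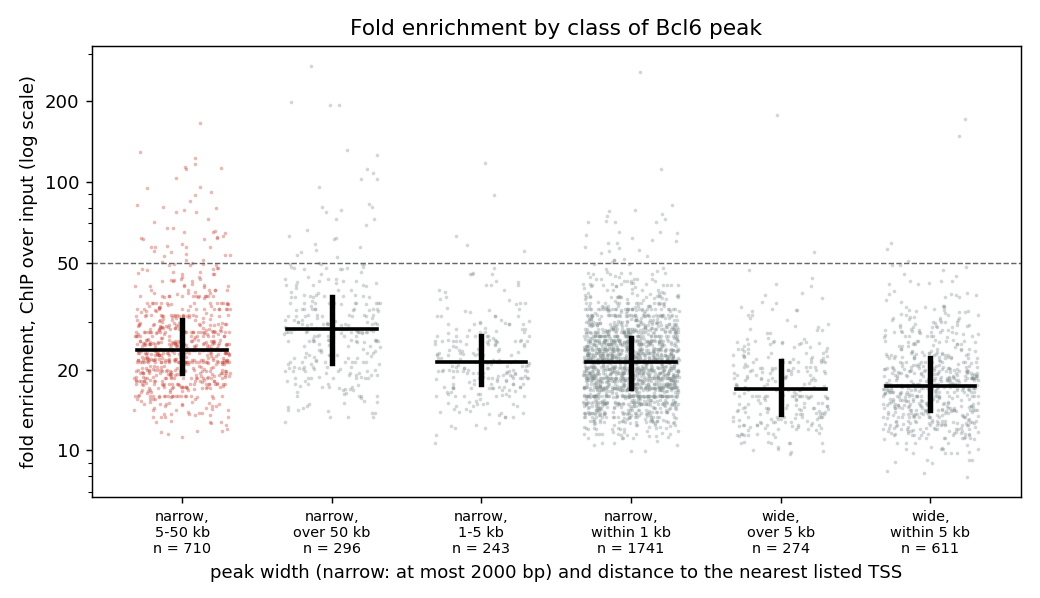
Fold enrichment of ChIP over input (log scale) of each peak by class, with narrow distal peaks (red) at the left and the other classes in grey. Horizontal bars are medians, vertical bars run between the quartiles, and the dashed line is at 50-fold, which 48 narrow distal and 31 narrow promoter peaks exceeded.

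Of the narrow distal peaks, 48 (6.76%, interval 5.03 to 8.86) exceeded 50-fold, against 3.12% of all peaks and 1.78% (interval 1.21 to 2.52) of narrow promoter peaks. In narrow peaks beyond 50 kb the share was 9.80% (interval 6.66 to 13.8). Narrow distal peaks made up 39 of the 100 highest folds of the series and 9 of the highest 25, but 10 of the 100 highest scores and 2 of the highest 25. The 48 peaks over 50-fold had a median of 72.5 tags and a width of 996 bp, against 42 tags and 1131 bp in the other 662 narrow distal peaks. They also stood more alone: another peak lay within 50 kb of 15 of the 48 (31.2%), against 356 of the 662 (53.8%). Of the 48, 28 were centred in the body of a protein-coding gene, 19 were upstream of the nearest listed TSS and 3 were at a RefSeq start.

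The highest peak of the class lay at chr17:29398843-29400128, 38.5 kb downstream of the TSS of Fgd2, an activator of the GTPase Cdc42, and 91.3 kb upstream of that of Pim1, a serine/threonine kinase whose gene is a known target of STAT signalling. It had 221 tags, a score of 752 and a fold of 166, which was the 8th highest fold and the 11th highest score of all 3878 peaks. Next in fold was a peak 15.4 kb upstream of Akap12, a scaffold for protein kinases A and C, with 117 tags and 130-fold enrichment in 814 bp. Both peaks were outside any protein-coding gene body. In the body of Rad51d, a gene of homologous recombination, a 122-fold peak lay 7.18 kb downstream of the TSS and 12.2 kb upstream of that of Rffl, which encodes a ubiquitin ligase. Rad51b, another gene of homologous recombination, had a 96.0-fold peak 44.3 kb into its body.

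Among the 20 highest folds, those listed for genes of enzymes and transporters are given together for reading only. A 116-fold peak was in Mtmr9, a myotubularin-related gene, 25.9 kb upstream of Tdh, the threonine dehydrogenase on which mouse embryonic stem cells are known to depend. Pnp2, a purine nucleoside phosphorylase gene, had a 112-fold peak 17.7 kb downstream, which was also 34.2 kb upstream of the ribonuclease-family gene Rnase10. A 103-fold peak lay 15.9 kb downstream of Carkd, a repair enzyme of hydrated NADH, and 37.3 kb downstream of Cars2, the mitochondrial cysteinyl-tRNA synthetase. Amino acid transporters were listed with 2 of the 20 peaks: Slc6a15, with an 89.2-fold peak 44.3 kb upstream, and Slc1a4, with an 82.1-fold peak 11.8 kb into its body. A 94.4-fold peak was in Mettl7a1, 10.5 kb upstream of Mettl7a3, both methyltransferase-like genes.

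The others were listed for genes of cell contacts, the cytoskeleton, signalling and other functions. Mpdz, a multi-PDZ scaffold at tight junctions, had a 113-fold peak 9.47 kb upstream with 178 tags, and it was the only listed gene of that peak. Ralgapa2, a subunit of the Ral GTPase-activating complex, had a 111-fold peak 37.1 kb upstream. Vil1, the actin bundler of microvilli, had an 80.8-fold peak 5.91 kb into the gene, and Ncam1, a neural cell adhesion molecule, a 72.7-fold peak 47.1 kb into the gene. A 79.8-fold peak lay 30.5 kb downstream of the TSS of Ptafr, the receptor for platelet-activating factor, and 44.5 kb upstream of Eya3, a transcriptional coactivator. A 91.5-fold peak in Fhad1 was listed also for Efhd2, a calcium-binding protein gene, 119 kb away, and an 84.6-fold peak in Tex2 was listed for Ern1, the endoplasmic reticulum stress sensor IRE1, 86.2 kb away. The Defb36 and Ankrd24 peaks described with their sequences were also among the 20.

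Over the 710 peaks, Spearman's rho between fold and score was 0.551, so the rankings overlapped only in part. Of the 10 highest scores, 8 were among the 20 highest folds, and the other 2 were the Gramd2 and Pkm peak and a peak 46.1 kb upstream of Klf9, a Krüppel-like repressor, with 190 tags, a fold of 53.2 and a score of 347. Of the 10 highest tag densities, 7 were among the 20 highest folds. The other 3 were the Klf9 peak, a 57.4-fold peak in Slc5a4b near Zfp280b, and a peak in Sptlc2, a subunit of serine palmitoyltransferase, and 18.4 kb upstream of Ism2. The last of these had 153 tags in 1458 bp but a fold of only 21.3 and a score of 77.0, so its tag density and its fold ranked it very differently. The authors' empirical false discovery rate was above 5% in 3 narrow distal peaks, those of Fgd2 and Fhad1 (9.09%) and of Mpdz (5.56%), which are among the highest in fold and score.

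At the low end, the 3 lowest folds were 11.2 at a peak in Ssc4d, listed as Srcrb4d and near Ywhag, 11.5 at a peak 48.7 kb upstream of Rybp, a Polycomb-associated gene, and 11.7 at a RefSeq start of Celf1, an RNA-binding protein gene, near Ndufs3, a subunit of respiratory complex I. These 3 peaks were not thin in tags, with 87, 64 and 89, all above the class median of 43.

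The limits that define the class cut through a continuous range. Just over 5000 bp lay the peaks of Lrrc14 at 5026 bp (15.3-fold), Nt5e at 5037 bp (31.5-fold) and Arid3b at 5044 bp (42.55-fold), and just under it those of Zc3h12a at 4938 bp (17.7-fold), 4930430O22Rik at 4888 bp (23.9-fold) and Vmn1r1 at 4859 bp (62.6-fold). Just inside 50000 bp were Kctd16 at 49817 bp (25.1-fold), Gm6569 at 49816 bp (31.5-fold) and Bhlhe40 at 49484 bp (33.2-fold), and just beyond it Aqp11 at 50395 bp (13.3-fold), Lrig1 at 50694 bp (25.7-fold) and Zfp622 at 50986 bp (28.4-fold). For width, the members nearest to 2000 bp were 1994 bp at Ywhag (15.96-fold), 1987 bp at Ddx39 (12.8-fold) and 1986 bp at Pcdhga11 (16.9-fold). The nearest excluded peaks, among those that met the distance limits, were 2011 bp at Cirbp (14.0-fold), 2012 bp at Lingo1 (23.05-fold) and 2013 bp at Nabp1 (12.6-fold). At none of the 3 limits did the folds on the inner side all lie above or all below those on the outer side. With 3 peaks on each side, this cannot tell whether fold changes at a limit.

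Narrow distal peaks lay both upstream and downstream of the TSSs listed for them, and inside and outside gene bodies. The nearest listed TSS was a median of 15.2 kb away (quartiles 9.15 and 26.7 kb). Of the 710, 280 (39.4%) were upstream of that TSS, against 40.7% of all peaks. The centre of 365 peaks (51.4%, interval 47.7 to 55.1) was inside the body of a protein-coding gene, against 64.0% of all peaks and 72.4% of narrow promoter peaks. For 342 of the 365 the body was that of a listed gene, and for 23 only that of an unlisted gene. Medians by position were close to each other. The median fold was 23.6 both upstream and downstream of the nearest TSS, and 23.6 both inside and outside gene bodies. By distance it was 22.8 in the 213 peaks at 5 to 10 kb, 24.5 in the 234 at 10 to 20 kb, 23.4 in the 173 at 20 to 35 kb and 25.1 in the 90 at 35 to 50 kb, with no steady order.

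**Figure D3:**
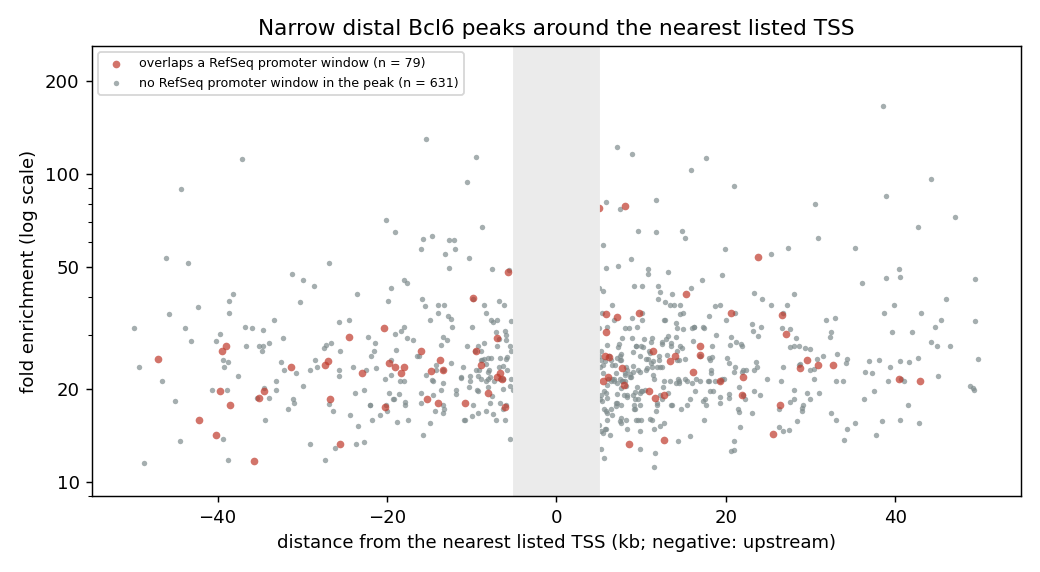
Fold enrichment (log scale) of each narrow distal peak against the signed distance of its centre from the nearest listed TSS (kb, negative is upstream), with the 79 peaks at a RefSeq promoter window in red and the other 631 in grey. The grey band holds no peak because of the 5 kb limit, and high folds occur on both sides and at all distances.

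Annotated lncRNA genes were touched by 88 narrow distal peaks (12.4%), against 14.5% of all peaks. Pseudogenes, where reads of near-identical copies can pile up, were touched by 5 (0.704%), against 0.825% of all peaks. Members were found on every chromosome except Y, which had 1 peak, and made up 25.1% of the peaks on chromosome 2, the highest number of members (76 of 303 peaks), and 12.0% on chromosome 16 (12 of 100).

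A single peak can be listed for several genes, and which of them it acts on, if any, is not measured. Only 10 of the 710 peaks were listed for 1 gene, 699 for 2 and 1 for 3. In the authors' list, made with GREAT, a gene's core region began 5000 bp before its TSS and ended 1000 bp past it. Beyond that region its reach was at most 1000000 bp. Members lay outside the core region of every listed gene, because of the 5 kb limit. The number of genes per peak and their sides thus follow in part from the choice of members, and are not findings about them. Of the 699, 381 lay downstream of one TSS and upstream of the other, 237 were downstream of both and 81 upstream of both. In 324 (46.4%) both TSSs were within 50 kb, and the farther of them reached 956 kb in the extreme case. Of the pairs of genes in opposite orientation around 1 peak, the closest were Lrrc14 and Lrrc24, at 5.03 and 6.51 kb around a 15.3-fold peak. A 20.5-fold peak lay 5.52 kb upstream of Arih2, a ubiquitin ligase gene, and 7.19 kb upstream of Slc25a20, the mitochondrial carnitine carrier. The next were Hspb7, a small heat shock protein gene, with Gm694 (35.5-fold), B4galnt1, a ganglioside synthase gene, with Slc26a10 (22.5-fold), and Rps3, a ribosomal protein gene, with Klhl35 (21.2-fold).

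The narrow distal peaks were listed for 1248 genes, of which 1106 had 1 such peak, 124 had 2 and 18 had 3 or more. For 835 of the 1248 genes (66.9%) these were their only peaks, while 226 (18.1%) also had a promoter peak, one centred 1 kb or less from the TSS. Matching shares over genes listed for other classes were not computed, so these shares describe the member genes only. Counted by peak, the nearest listed gene had a promoter peak as well in 142 of 710 cases (20.0%), and in 17.9% of the narrow peaks beyond 50 kb. The median fold was 22.2 where the nearest gene had a promoter peak and 23.9 in the 568 peaks where it had none, and the difference was not tested.

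Pim1 had the most, with 4 narrow distal peaks among its 5 in all. Besides the 166-fold peak at 91.3 kb upstream there were peaks of 24.9-fold at 39.4 kb upstream, 18.6-fold at 26.7 kb upstream and 18.7-fold at 5.96 kb downstream. The peak at 26.7 kb upstream was at the start of the lncRNA Gm36199. Fgd2, the neighbour of Pim1, was listed with the same 3 upstream peaks, which lay beyond its own far end.

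Of the transcription factors among the 18 genes, Klf9 had peaks of 53.2-fold at 46.1 kb upstream, 15.99-fold at 11.1 kb and 24.0-fold at 28.6 kb downstream, among 6 in all. Zfp42, the pluripotency marker Rex1, had peaks of 37.4-fold at 13.9 kb upstream, 18.1-fold at 7.07 kb downstream and 15.5-fold at 12.7 kb downstream, and no peak within 1 kb of its TSS. Grhl3, an epithelial grainyhead-like factor, was listed with 3 peaks of 17.0- to 35.5-fold that all lay in the body of its neighbour Stpg1, at 41.3 to 65.9 kb from its own TSS. Zfhx2, a zinc finger homeobox gene, and Ngdn, which are neighbours, shared 3 peaks of 14.6-, 21.3- and 34.0-fold.

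Corepressor and chromatin genes were present with Spen, which binds corepressors and acts in Notch signalling, and Rere, an atrophin-family corepressor. Spen had peaks of 17.9- to 18.6-fold at 26.9 and 31.5 kb upstream and at 71.6 kb downstream, the last in the body of Zbtb17. Rere had peaks of 28.7-fold at 28.6 kb upstream, 12.7-fold at 23.7 kb upstream and 21.3-fold at 344 kb downstream. Mllt6, a partner of the histone methyltransferase Dot1l, had peaks of 19.5- to 22.3-fold at 18.4 and 6.35 kb upstream and 9.85 kb downstream.

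Of the rest, Zfp36l1, which promotes decay of AU-rich mRNAs, had 24.4- and 16.7-fold peaks within 20 kb and was also listed for the 96.0-fold Rad51b peak 771 kb away. Ywhag, which encodes the adaptor 14-3-3 gamma, had peaks of 15.96-, 14.1- and 11.2-fold, the lowest maximum of the 18. Mtss1, a membrane-bending scaffold, had peaks of 38.4-, 25.6- and 21.6-fold, and Kcnj12, an inward-rectifier potassium channel, of 29.55-, 23.05- and 22.0-fold. Slc25a39, a mitochondrial glutathione carrier, had peaks of 33.0-, 21.7- and 21.3-fold, Spocd1 of 30.1-, 23.6- and 21.5-fold, and Tmem131 of 28.6-, 23.05- and 13.6-fold. Of the 18 genes, Pim1, Fgd2, Klf9 and Zfp36l1 were the 4 listed with a peak over 50-fold.

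**Figure D4:**
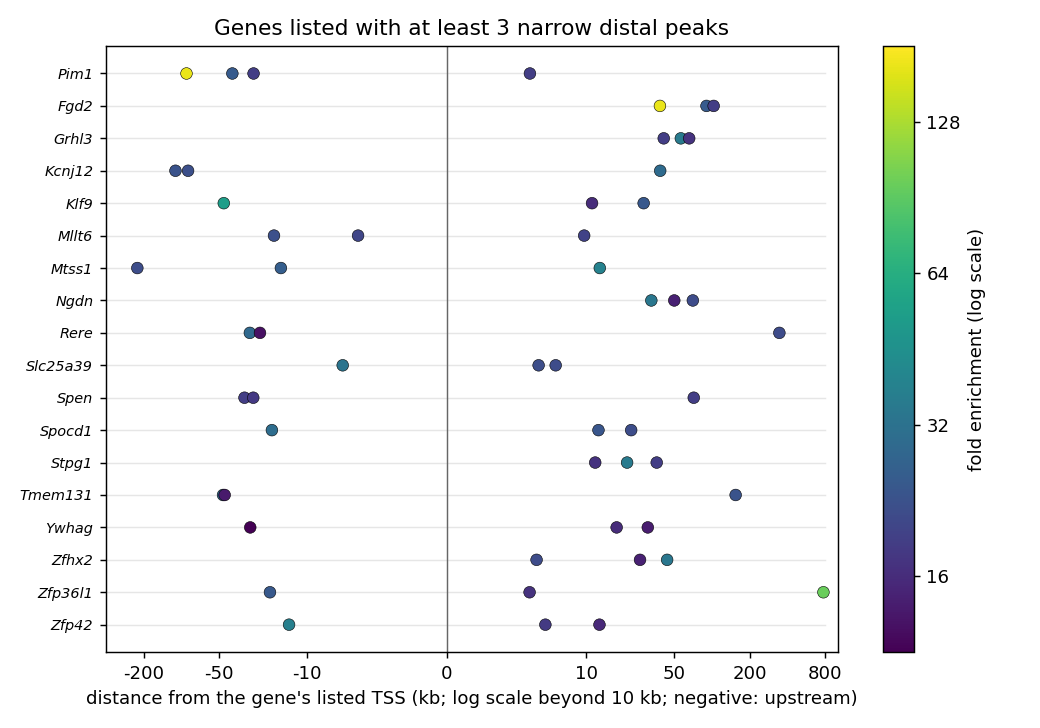
Each row is 1 of the 18 genes listed with at least 3 narrow distal peaks, and each point is a peak at its distance from the listed TSS of that gene (kb, linear to 10 kb and log scale beyond, negative is upstream), coloured by fold enrichment on a log scale. Pim1, with 4 peaks, and its neighbour Fgd2 share the 166-fold peak, and a peak farther than 50 kb from 1 gene is nearer to another listed gene.

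Another peak of any class was within 50 kb of 371 narrow distal peaks (52.3%), against 47.3% of all peaks, and within 10 kb of 137 (19.3%), against 20.0% of all peaks. The nearest such neighbour was a narrow promoter peak for 164 of the 371, another narrow distal peak for 116 and a peak of another class for 91. Narrow promoter peaks were thus 44.2% of these neighbours, near their 44.9% of all peaks. Narrow distal peaks were 31.3% of the neighbours and 18.3% of all peaks, a difference that was not tested. The closest narrow distal pair were centred 1222 bp apart near Slc25a39, with folds of 21.3 and 21.7. Next were a pair 1338 bp apart near Ubxn6, with 25.6- and 21.7-fold, and a pair 1382 bp apart between Tmem131 and Vwa3b, with 13.6- and 28.6-fold.

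Gene lists were read against all 21900 protein-coding genes, of which 911 (4.16%) were listed with a narrow distal peak within 50 kb and 1207 (5.51%) with one at any distance. Taking for each of these 1207 genes its highest narrow distal peak, 647 peaks in all, the median over genes was 24.5-fold. The lists are short, so their intervals are wide, and lists share genes and peaks. Peaks of any class were listed for 20.1% of all protein-coding genes, and only the fibroblast list (5.56%) was below that. The share was 43.3% for JAK/STAT, 39.4% for Notch and 47.6% for BMP and TGF-beta genes. It was 61.5% for Krüppel-like and Sp, 42.1% for BTB zinc finger and 51.6% for G1/S genes. A high share in these lists is therefore not particular to narrow distal peaks.

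Of 24 pluripotency genes, 7 (29.2%, interval 12.6 to 51.1) had a narrow distal peak within 50 kb. Besides Zfp42, the highest were Prdm14, a germline and naive pluripotency regulator, with 30.6-fold at 41.9 kb downstream, Tbx3, a T-box factor, with 27.6-fold at 14.6 kb downstream, and Tdgf1, the Nodal co-receptor Cripto, with 27.45-fold at 10.2 kb downstream. The other 3 of the 7 were Tfcp2l1 (25.3-fold), Sox2 (17.0-fold) and Utf1 (15.96-fold), which fall outside the naming rule and are given to complete the count. Their median was 27.45-fold, against 24.5-fold over all listed genes. Including peaks of any class, 17 of the 24 genes (70.8%) had a peak, against 20.1% of all protein-coding genes.

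Of the signalling lists, the JAK/STAT pathway had 4 of 30 genes (13.3%, interval 3.76 to 30.7) with a narrow distal peak within 50 kb. Besides Pim1 these were Pim3, a related kinase, with 34.6-fold at 24.5 kb upstream, and the feedback inhibitors Socs3 with 20.7-fold at 5.95 kb downstream and Socs7 with 14.3-fold at 37.7 kb downstream. In the Notch pathway it was 4 of 33 (12.1%, interval 3.40 to 28.2). Notch2, a receptor, had 24.65-fold at 11.4 kb within its body, Dll4, a ligand, 25.6-fold at 12.1 kb, and Dtx1, a Deltex ubiquitin ligase, 25.03-fold at 31.9 kb downstream. Maml3, a coactivator, had its peak at 403 kb in its own long body (24.8-fold) and counts only at any distance, and Notch1, which falls outside the naming rule, had 19.9-fold at 45.0 kb within its body. All 5 of these Notch pathway peaks lay between 19.9- and 25.6-fold, around the class median of 23.6-fold.

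In the BMP and TGF-beta pathway, 5 of 42 genes (11.9%, interval 3.98 to 25.6) had a narrow distal peak within 50 kb and 9 at any distance. The highest were Smurf2, a ubiquitin ligase of the pathway, with 39.4-fold at 67.1 kb upstream, Id4, an inhibitor of bHLH factors, with 39.4-fold at 15.8 kb upstream, and the BMP antagonist Nog (35.5-fold at 202 kb) and ligand Bmp7 (34.9-fold at 363 kb), whose peaks are nearer to other genes. In the Wnt pathway, 5 of 72 genes (6.94%, interval 2.29 to 15.5) did. The receptor Fzd7 had 33.5-fold at 26.5 kb downstream, the feedback inhibitor Axin2 27.6-fold at 34.7 kb upstream, the effector Lef1 25.3-fold at 8.10 kb upstream, and the antagonist Nkd1 31.5-fold at 106 kb. Of 42 FGF and IGF pathway genes 0 had a narrow distal peak at any distance (interval 0 to 8.41%), and 21 (50%) had a peak of some class, against 20.1% of all protein-coding genes. Of 19 Sonic hedgehog pathway genes 0 had one within 50 kb, and Shh (31.5-fold at 743 kb) and Gli2 (25.3-fold at 405 kb) had one farther off. The Shh ligand's peak was in the body of Rnf32 and was the only narrow distal peak listed for 3 genes.

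Among regulators of transcription, the Krüppel-like and Sp list had 4 of 26 genes (15.4%, interval 4.36 to 34.9) with a narrow distal peak within 50 kb. These were Klf9, Klf3 with 21.3-fold at 8.08 kb in its body, and Sp1 and the bone factor Sp7, which share a 15.96-fold peak upstream of both. BTB zinc finger genes, relatives of Bcl6, had 4 of 38 (10.5%, interval 2.94 to 24.8), with Zbtb7a at 21.3-fold, Nacc2 at 19.95-fold, Zbtb17 at 18.6-fold and Zbtb7b at 17.5-fold, all below the class median. Of 22 Bcl6 corepressors and chromatin partners, 2 (9.09%, interval 1.12 to 29.2) had one within 50 kb. These were Mta3, a NuRD subunit that works with Bcl6 in B cells, with 43.1-fold at 28.6 kb upstream, and the deacetylase Sirt1, with 21.3-fold at 43.0 kb in its body and at another RefSeq start of the gene. The acetyltransferase Ep300 had a 26.8-fold peak farther off, at 67.8 kb upstream.

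Of 31 G1/S regulators of the cell cycle, 3 (9.68%, interval 2.04 to 25.8) had a narrow distal peak within 50 kb. E2f2 had 20.6-fold at 7.96 kb in its body, at a RefSeq start, Ccnd1, which encodes cyclin D1, 19.95-fold at 10.5 kb downstream in the neighbouring gene LTO1, and Cdkn1a, the inhibitor p21, 15.6-fold at 14.9 kb upstream. The peak listed for Ccnd3, another D-type cyclin, was 96.4 kb away (19.7-fold). Cdkn1a and Socs3 were also the 2 of 26 (7.69%, interval 0.946 to 25.1) known Bcl6 targets of lymphoid cells. Of 25 housekeeping genes, 1 (4%) had a narrow distal peak within 50 kb, the translation factor gene Eef1a1 with 24.5-fold at 38.8 kb upstream. Tfrc, the transferrin receptor, had a 65.35-fold peak at 97.8 kb upstream.

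**Figure D5:**
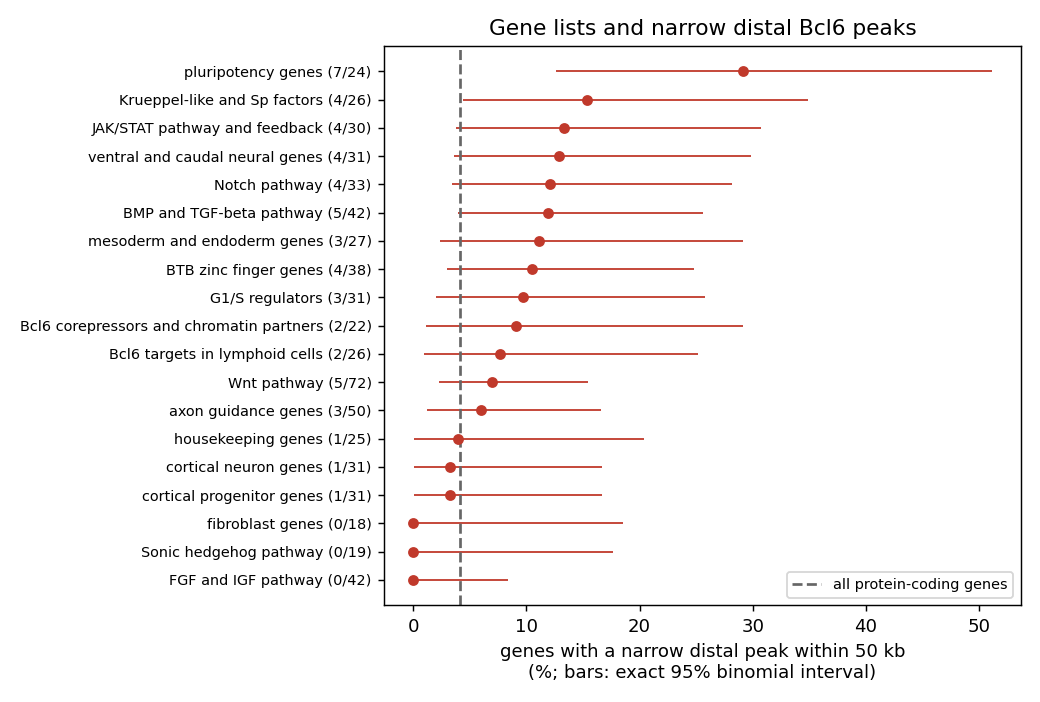
Percentage of the genes in each of 19 lists that were listed with a narrow distal peak within 50 kb (points, with exact 95% binomial intervals over genes as bars and the counts beside each name), with the share over all protein-coding genes, 4.16%, as a dashed line. Pluripotency genes had the highest share (29.2%), and the FGF and IGF, Sonic hedgehog and fibroblast lists had 0.

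In the lists of the cortical lineage, a narrow distal peak within 50 kb was listed for 1 of 31 cortical progenitor genes, 1 of 31 cortical neuron genes (3.23% each, interval 0.0816 to 16.7) and 3 of 50 axon guidance genes (6%, interval 1.25 to 16.5). The progenitor gene was Sox2, with 17.0-fold at 5.88 kb downstream, and Slc1a3, the glial glutamate transporter, had 23.6-fold at 142 kb. Of the cortical neuron genes, Cux1, an upper-layer factor, had 21.7-fold at 316 kb in its own body. Plxna1, a semaphorin receptor, had 30.85-fold at 18.4 kb upstream, the guidance protein gene Draxin 24.0-fold at 28.5 kb and the netrin receptor gene Unc5b 22.6-fold at 48.05 kb, the last 2 in their own bodies, and Plxnc1 had 22.6-fold at 371 kb.

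Genes of other lineages had narrow distal peaks too. Of 31 ventral and caudal neural genes 4 (12.9%, interval 3.63 to 29.8) had one within 50 kb, among them the Hox gene Hoxb1 with 26.4-fold at 9.10 kb downstream, while Pax2, a midbrain and kidney factor, had 33.7-fold at 173 kb. Of 27 mesoderm and endoderm genes 3 (11.1%, interval 2.35 to 29.2) did. The erythroid factor gene Gata1 had 67.0-fold at 11.2 kb downstream, the haematopoietic factor gene Gata2 26.6-fold at 8.94 kb upstream, and Snai1, a repressor of epithelial genes, 18.1-fold at 34.5 kb upstream, at a RefSeq start of Rnf114. Cxcr4, a chemokine receptor gene, had 40.8-fold at 151 kb. None of 18 fibroblast genes had one.

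The labels call the cells cortical progenitors, and peaks measure binding and not expression, so that label could not be checked against marker levels. As a description of the peaks, 1 of 13 cortical progenitor markers had a narrow distal peak (Sox2), 1 of 10 cortical neuron markers, 5 of 10 markers of pluripotent cells, 1 of 9 of mesoderm and endoderm (Snai1), and 0 of 8 of fibroblasts, the type that fed the stem cells before differentiation. Over all protein-coding genes the share was 5.51%. In the same order, 6, 3, 10, 3 and 1 of the markers had a peak of any class, against 20.1% of all protein-coding genes. The larger share in markers of pluripotent cells was thus not particular to narrow distal peaks. Of the genes most tied to Bcl6 in this system, Bcl6 itself had 1 peak, 64.8-fold and 35 bp from the TSS, Hes1, a Notch effector, 2 peaks of 13.0- and 15.1-fold within 2 kb, and Ccnd2 1 peak of 45.4-fold at the promoter, and none of these was narrow distal. Hes5, another Notch effector, was listed with 0 peaks. Ccnd1 had the narrow distal peak described above beside a 24.8-fold peak at 2.16 kb downstream and a 35.5-fold peak at 94.7 kb upstream.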

How the data were processed

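The deposited table of peaks was joined by peak number to the deposited list of genes per peak. Reads were aligned with Bowtie to mm10, per the submitters' processing notes, with the version not given in the sources used here. Peaks were called with MACS 1.4.2 on pooled ChIP against pooled input, per the file headers, with tags of 26 bp, a band width of 300 bp and 1e-05 as the largest p-value. The tag count per peak was deposited as a raw count of pooled ChIP tags. The fold enrichment was deposited as a linear ratio over the local input background, read over 1000 and 10000 bp per the file headers. The p-value score was deposited under a damaged column name and was identified from column order and its minimum of 50.03. The empirical FDR was deposited as a percent. Peak position, width and summit offset, and the signed TSS distances of GREAT 3.0.0 for mm10, are the authors' deposited values.

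Duplicate removal left 20.6% of ChIP tags and 39.4% of input tags, per the file headers. This depth may limit low peaks, which was not tested. From the files, classes, medians, shares with exact binomial intervals (SciPy 1.17.1) and overlaps were computed with Python 3.11.15, pandas 2.3.3 and NumPy 2.4.6. Symbols of 98.6% of 5801 listed pairs were matched to RefSeq genes of GRCm38.p6. Medians of distance use the peak centre, as the list does. A peak was at a RefSeq start if it overlapped a promoter window, and in a gene body if its centre was between the ends of a protein-coding gene. The motif search was tested on simulated sequences. Without a genome, motifs were searched only in RefSeq promoter windows.

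Samples were grouped as Bcl6 ChIP or input DNA by their titles. No test was run, because there is a single pooled data set. The members, the gene lists and the rules were chosen with earlier results of these data known. Genes were named by rule: the 20 highest folds, 10 highest scores and 10 highest tag densities, genes with at least 3 narrow distal peaks, up to 4 per list by fold, 3 peaks on each side of each limit, 6 peaks at RefSeq starts, the 3 closest pairs, the 3 lowest folds, the 5 closest opposed gene pairs, and Bcl6, Hes1, Hes5, Ccnd1 and Ccnd2. Some genes that the rule names are not reported here. The alternatives tried were other width and distance limits, peaks of the higher-scoring part, an FDR limit of 5%, distance to the nearest gene end, single-gene peaks, all annotated genes, and 10 kb between neighbours.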

Additional observations from a re-analysis of the deposited data

How the results depend on the processing

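Keeping peaks whose score reached the median over all 3878 left 277 narrow distal peaks, with a median fold of 29.3, a median of 57 tags, 17.3% over 50-fold and 47.7% in gene bodies. With a width limit of 1500 bp the median fold was 24.8 and the median tag count 40, and with no width limit they were 22.0 and 52. With distance taken to the nearest end of a protein-coding gene, the median fold was 24.9 and the share in gene bodies 57.2%. With all annotated genes that share was 58.9%. The 10 peaks listed for a single gene were upstream in 30% of cases. With 10 kb between centres in place of 50 kb, 19.3% had a neighbour. The first, width, gene-end, single-gene and neighbour settings change which peaks or distances count by construction. With all annotated genes the share in gene bodies can only rise, because the protein-coding genes are among them. What else moved these values was not tested. The other 44 recomputed values moved by less than their counting interval or, for counts, by less than 1.5 times, including those without the 79 peaks at RefSeq starts, a setting chosen after seeing the data. A planned motif search in the peaks was not run, since it needs a genome. No paired analysis was possible because the deposited peaks come from pooled libraries, and for the same reason no replicate could be left out. The spread between the 3 experiments is unknown. The deposited peaks give no input tag count per peak, so the input behind each fold is not known either.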
